A study of Homo sapiens with 15 samples.

Results

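The comparison described here is that of H3K27ac chromatin contacts after 4 h in dihydrotestosterone (DHT) with those in vehicle. Its members are the 296326 anchor pairs of the H3K27ac loop set, out of 505995 different anchor pairs (574817 rows) that the tables list for H3K27ac and H3K4me3 together. HiChIP joins DNA ends that lie together in the nucleus and then pulls down the fragments that carry a given histone mark, so that a pair of anchors joined by many read pairs is called a loop. The cells were LNCaP, an androgen-responsive prostate cancer line from a lymph node metastasis. All cells had been kept for 3 days in phenol red-free medium with charcoal-stripped serum, which is poor in steroids. The vehicle group (0 m) then received ethanol and the treated group 10 nM DHT for 4 h. GEO lists 2 samples of each group but 1 deposited contact value per loop and time point, so every difference below compares 2 values without a replicate check and no test was possible. As a model this is a single cell line.

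H3K27ac marks active enhancers and promoters, and loops bring such enhancers near the promoters they serve. In luminal prostate cells, androgen such as DHT changes transcription mostly through distal enhancers, opened by the pioneer factor FOXA1, and is best known for inducing the kallikrein protease genes, among them KLK3, which encodes prostate-specific antigen. A contact in H3K27ac HiChIP rises when the mark at an anchor rises and when the anchors meet more often, and these causes cannot be told apart here.

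The promoter of KLK3 is shown because its contact had the largest change of the promoters compared. The stretch is the 250 bases before the gene start (chr19:51357921-51358170, hg19, plus strand). It held 0 matches to the forkhead, AP-1, GATA and CTCF motifs searched at the anchors below, which says only that those letters are not in this window.
KLK3 promoter: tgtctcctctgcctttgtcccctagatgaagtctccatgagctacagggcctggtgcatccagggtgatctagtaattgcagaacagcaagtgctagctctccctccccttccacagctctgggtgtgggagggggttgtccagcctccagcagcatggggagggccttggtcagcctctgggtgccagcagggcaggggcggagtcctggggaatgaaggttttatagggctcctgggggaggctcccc

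The deposited contacts were whole multiples of 1 read pair, worth 0.294 at 0 m and 0.214 at 4 h, so that read pairs could be recovered. The H3K27ac set held 1989545 read pairs at 0 m and 2880426 at 4 h, a median of 4 and 5 per loop, and 5.81% and 2.98% of loops were at 0. Intervals below are exact 95% intervals of the ratio of read pairs and cover counting error only. LNCaP is luminal, and 5 of 6 luminal marker promoters (KRT8, KRT18, FOXA1, HOXB13 and FOLH1) had at least 200 read pairs. KRT8 and KRT18 share their loops. That minimum was met by 0 of 6 basal, 0 of 7 stromal, 0 of 6 leukocyte and 1 of 6 neuroendocrine marker promoters (ENO2), against 23.3% of all coding genes.

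The mean contact of a loop was 1.97 at 0 m and 2.08 at 4 h, a log2 change of 0.07 (interval 0.07 to 0.08). With both libraries set to the same total the change is 0 by construction, and the shift between the scalings is -0.07 for every loop. The mean contact was 2.08 after 30 m of DHT, 2.41 after 16 h and 2.26 after 72 h. Below, 5 values given in a row are those of vehicle and then of the DHT times from the shortest to the longest, so that the first and the middle value are the pair compared.

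Contact rose in short loops and fell in long ones. Loops under 20 kb changed by 0.23 (0.22 to 0.23; 42191 loops), loops of 20 to 100 kb by -0.01 (-0.02 to -0.01; 85448 loops) and loops of 100 to 500 kb by -0.10 (-0.10 to -0.09; 137223 loops). Loops of 500 kb to 1 Mb changed by -0.20 (-0.22 to -0.19) and those of 1 Mb and over by -0.24 (-0.28 to -0.21). The loops between neighbouring bins, 5 kb apart, were at 0.27 (0.26 to 0.27) and went from a mean contact of 7.88 to 9.49. Together the loops of at least 20 kb changed by -0.06.

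Anchors rich in GC held more of the gain. From the fifth of loops with the lowest GC content at the anchors (mean 36.1%) to the highest (56.2%), the log2 change ran through -0.02, 0.04, 0.09, 0.12 and 0.12. In loops of at least 20 kb it ran from -0.17 (-0.18 to -0.16) to 0.00 (-0.01 to 0.01). GC content can alter how well a fragment is amplified and sequenced, and its part in the changes below was not tested.

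**Figure D1:**
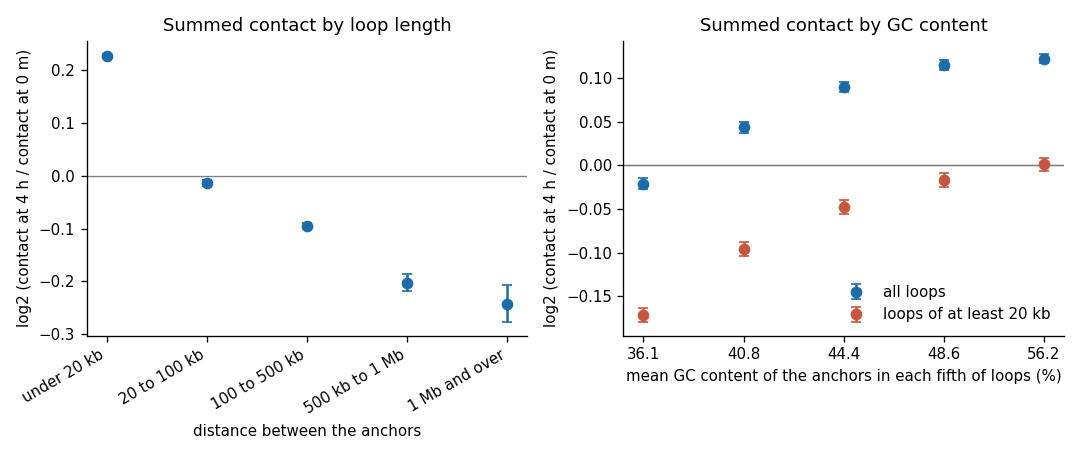
Log2 change of summed H3K27ac contact from 0 m to 4 h, by the distance between the anchors (left) and by the mean GC content of the anchors in 5 equal groups of loops (right), with exact 95% intervals of the counts. The change falls from 0.23 under 20 kb to -0.24 at 1 Mb and over, and rises with GC content both in all loops (blue) and in loops of at least 20 kb (red).

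Loops were also classed by what they join and by their contact at the time points not compared. Loops with both anchors at coding promoters (within 2500 bp of the gene start) changed by 0.06 (0.05 to 0.07; 18332 loops), those with 1 promoter by 0.03 (0.03 to 0.04; 97923 loops) and those with none by 0.10 (0.09 to 0.10; 180071 loops). At 20 kb or more the values were -0.05, -0.07 and -0.06, so the excess of promoter-free loops was not seen there. By mean contact at 30 m, 16 h and 72 h, loops below 1 changed by -0.06, loops of 1 to 4 by 0.05, of 4 to 16 by 0.14 and of 16 and over by 0.17. At 20 kb or more these were -0.07, -0.05, -0.06 and -0.02.

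Single loops were compared where 0 m and 4 h held at least 50 read pairs together, which 17509 did. Of these, 589 (3.36%) were at least 2-fold higher at 4 h and 63 (0.36%) at least 2-fold lower, and the median change was 0.17. The interval excluded 0 upward in 2242 tested loops and downward in 419. The higher loops were mostly between neighbouring bins, 499 of 589, as were 10989 of the 17509 tested loops. Among the 3353 tested loops of at least 20 kb the excess of rises was gone, with 42 higher (1.25%) and 35 lower (1.04%). Relative to all loops of the same length, 238 loops were 2-fold higher and 126 lower.

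Most of the higher loops joined no coding promoter, 469 of 589 (79.6%) against 61.1% of all tested loops. At 20 kb or more it was 26 of 42 (61.9%) against 50.8%. The mean contact of the 589 loops was 5.37, 8.83, 12.5, 11.3 and 8.71. That of the 63 lower loops was 11.3, 5.89, 5.16, 8.79 and 7.51. Every time point is set against the same vehicle library, so the other times are not an independent check of the 4 h change. The anchors of the lower loops held less GC, 42.9% against 46.3% in the higher loops.

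Of the 10 largest rises, 3 had an anchor at a coding promoter, those of MCCC2, KLK3 and PKP1. The loop with the largest change of those with at least 100 read pairs joined intergenic bins of chromosome 12 (chr12:52517001-52518000 to chr12:52522001-52523000), 44013 bp from the nearest coding start, that of SMIM41. It held 27, 101, 141, 149 and 47 read pairs, a log2 change at 4 h of 1.92 (1.32 to 2.58). The next spanned the start of MCCC2, a subunit of the mitochondrial enzyme that breaks down leucine (chr5:70872001-70873000 to chr5:70877001-70878000), with 21, 69, 99, 83 and 39 read pairs (1.78; 1.09 to 2.53). Both were lowest at 0 m.

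Loops beyond the start of PMEPA1, a TGF-beta pathway inhibitor that androgen induces, were also among the 10. The loop chr20:56347001-56348000 to chr20:56352001-56353000, 60909 bp from the PMEPA1 start, held 21, 70, 95, 60 and 15 read pairs (1.72; 1.02 to 2.47). The loop chr20:56327001-56328000 to chr20:56332001-56333000 held 31, 64, 124, 53 and 15 (1.54; 0.96 to 2.16). At 72 h both were below vehicle, with a contact of 3.95 each against 6.17 and 9.11 at 0 m. A loop between the same 2 regions, 15 kb apart, went from 14 to 65 read pairs (1.76; 0.91 to 2.70). The stretch from the PMEPA1 promoter to these bins held 6 loops with at least 50 read pairs. Of these, 6 were above 0 and 4 were 2-fold higher, against 66.4% and 3.36% of all tested loops. The 4 that were 2-fold higher joined intergenic bins to each other. The promoter loop among the 6 reached only the next bin (25 and 41 read pairs; 0.25, -0.50 to 1.03). The region was chosen for the loops above, which are counted among them.

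ZBTB16 encodes a zinc finger repressor that androgens and glucocorticoids induce. Among loops of 20 kb or more with at least 100 read pairs, the loop inside it had the largest rise. It joined chr11:114032001-114033000 to chr11:114052001-114053000, both intronic, with 44, 135, 190, 150 and 58 read pairs (1.65; 1.17 to 2.16). Of 30 loops with at least 50 read pairs across the gene and its upstream region, 28 were above 0 and 6 were 2-fold higher, with a median change of 0.54, against 66.4% and 3.36% of all tested loops. The region was chosen for its first loop, which is counted among these. The promoter itself reached these bins with 56 read pairs at 0 m and 130 at 4 h (0.76; 0.29 to 1.23) and with 44 and 97 (0.68; 0.15 to 1.23).

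Other rises within the first 10 were in an intron of UBE2G1, which encodes a ubiquitin-conjugating enzyme (35 read pairs at 0 m, 157 at 4 h; 1.71, 1.17 to 2.28), at TNFRSF10B, a death receptor gene (26 and 112; 1.65, 1.02 to 2.32), in LAMA1, a laminin gene (23 and 90; 1.51, 0.84 to 2.24), and at the promoter of PKP1, a desmosomal plakophilin gene (34 and 132; 2.82-fold, log2 interval 0.94 to 2.09). For loops of 20 kb or more with at least 100 read pairs, a list was drawn up after the values were seen. The 6 loops after the first of ZBTB16 included a second loop of ZBTB16 and 3 kallikrein loops. The others were a 45 kb loop inside ACACA, which encodes a rate-limiting enzyme of fatty acid synthesis (25 and 88; 1.36, 0.70 to 2.06), and a 45 kb loop from the promoter of UQCC2 (33 and 100; 1.14, 0.56 to 1.75).

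**Figure D2:**
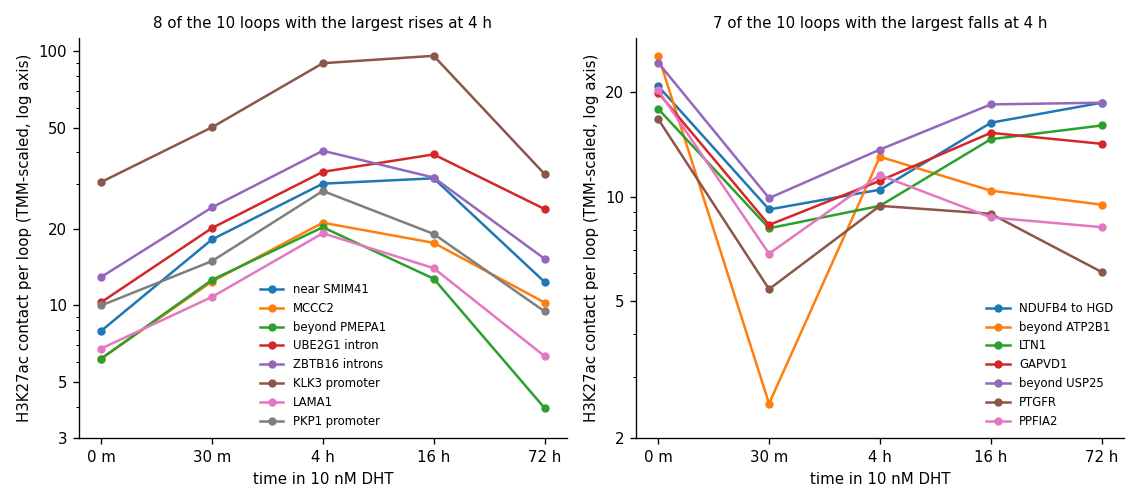
H3K27ac contact (deposited scale, log axis) at vehicle and 4 times in DHT for 8 of the 10 loops with the largest rises (left) and 7 of the 10 with the largest falls (right) at 4 h, each point 1 deposited value. The KLK3 promoter loop runs from 30.6 at 0 m to 89.7 at 4 h and 96.0 at 16 h, and it is at 32.9 at 72 h, while the UBE2G1 loop is at 23.9 then, against 10.3 at 0 m.

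The falls were smaller. Among loops with at least 100 read pairs 1 fell past 2-fold, inside CSMD1, which encodes a large membrane protein, from 65 to 44 read pairs (-1.02; -1.61 to -0.45). Next came a 90 kb loop between the promoters of NDUFB4, a subunit of respiratory complex I, and HGD, an enzyme of tyrosine breakdown, with 71, 51, 49, 77 and 71 read pairs (-0.99; -1.55 to -0.45). A 15 kb loop 239358 bp from the start of ATP2B1 held 87, 14, 61, 49 and 36 read pairs (-0.97; -1.47 to -0.48). The others were in CNBD1 (-0.99), LTN1 (-0.93), GAPVD1 (-0.85) and PTGFR (-0.83), nearest to MCTP1 (-0.85) and USP25 (-0.83), and in PPFIA2 (-0.81; -1.35 to -0.28). Read pairs are not scaled for depth, which the contacts and log2 changes are.

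In the kallikrein cluster on chromosome 19, contacts rose together. KLK3 and KLK2 encode secreted proteases of the luminal epithelium that androgen induces. The KLK3 promoter anchor (chr19:51357001-51358000) had 1 loop, to the bin of its upstream enhancer (chr19:51352001-51353000, 5670 bp from the start), with 104, 279, 420, 452 and 125 read pairs. Contact was 30.6, 50.2, 89.7, 96.0 and 32.9, a 2.94-fold rise at 4 h (log2 1.55; 1.24 to 1.88). The same enhancer bin met a KLK2 intron bin (chr19:51372001-51373000), 20 kb away, with 63, 175, 202, 170 and 41 read pairs (1.22; 0.81 to 1.65). This bin is intronic by the outermost KLK2 start and lies 5 kb before the bin of an inner start.

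Of 13 loops with at least 50 read pairs from the KLK15 promoter to the KLK4 promoter, 13 were above 0 and 6 were 2-fold higher, with changes from 0.25 to 1.55 and a median of 0.98. Of all tested loops 66.4% were above 0 and 3.36% 2-fold higher. The KLK2 start in the annotation used is an outer one, and its loops there were thin, 14 read pairs at 0 m and 58 at 4 h (1.59; 0.73 to 2.55). With any annotated coding start counted, the KLK2 loops went from 179 to 511 read pairs (2.08-fold; log2 interval 0.81 to 1.31), most of it in the loop between its intron bin and its inner start (165 and 449; 0.98, 0.72 to 1.25). These loops share anchors and are not independent of each other.

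The same holds for TMPRSS2, an androgen-induced membrane protease: its outer start had 5 and 10 read pairs, and its loops at any annotated start 238, 452, 467, 373 and 267 (0.51; 0.28 to 0.74). An inner start met a bin 15 kb upstream (chr21:42892001-42893000) with 33, 70, 83, 38 and 23 read pairs (1.83-fold; log2 change 0.87). FKBP5, a co-chaperone of steroid receptors, had 23 promoter loops with 252 read pairs at 0 m and 542 at 4 h (0.65; 0.43 to 0.87). Its strongest loop, to an intron bin 5 kb away, held 124, 508, 298, 412 and 221 read pairs (0.81; 0.50 to 1.12), which is highest at 30 m, and a loop of 145 kb to the far end of the gene held 22, 46, 53, 33 and 23 (0.81; 0.07 to 1.60).

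In other androgen-induced genes the loops varied. In ABCC4, which encodes a transporter, the loops of 5 kb and 30 kb rose (29 to 78 read pairs, 0.97, 0.34 to 1.64; 17 to 47, 1.01, 0.18 to 1.90), and that of 85 kb was at -0.15 (-1.15 to 0.86). The strongest loop of UAP1, an enzyme of UDP-sugar synthesis, held 201, 231, 321, 623 and 323 read pairs, 0.22 at 4 h (-0.04 to 0.48). For SLC45A3, a prostate solute carrier, the 3 strongest loops were at 0.41, 0.33 and 0.14, each with an interval that included 0. The 3 strongest of 12 PMEPA1 promoter loops were at 0.25 (-0.50 to 1.03), 0.64 and -1.14, with at most 41 read pairs at 0 m or 4 h and intervals that held 0. Its 12 promoter loops together went from 56 to 101 read pairs (0.39; -0.09 to 0.89). With any annotated start they went from 102 to 214 read pairs (0.61; 0.26 to 0.96).

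Contact was next summed over all loops of an anchor, each loop counting at both its ends. Of 11222 anchors with at least 200 read pairs, 390 (3.48%) were at least 1.5-fold higher and 107 (0.953%) at least 1.5-fold lower, with a median change of 0.04. With equal library totals there were 238 higher and 224 lower anchors, and in loops of at least 20 kb the excess turned round, with 62 higher and 147 lower. The highest was the bin beyond PMEPA1 at chr20:56347001-56348000, with 54, 136, 258, 137 and 38 read pairs over 12 loops (1.80; 1.37 to 2.25). None of these 12 loops reached a coding promoter. The KLK3 promoter (1.55) and its enhancer bin (194 to 704 read pairs; 1.40, 1.17 to 1.64) were also among the first 4. The other was an intergenic anchor of the X chromosome 25805 bp from the start of MAOB, which encodes monoamine oxidase B (47 to 176; 1.45, 0.97 to 1.94).

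The next were a bin 5079 bp before PKP1 (1.33), a second PMEPA1 bin (86 to 294 read pairs; 1.31, 0.96 to 1.68), bins near NPY (1.26), TBX4 (1.25) and AZGP1 (1.19), which encodes a secreted zinc-binding glycoprotein of luminal cells, and an intron of ATP6V0E1 (1.20). Leaving out loops under 20 kb, 8 of these 10 anchors had values between 0.90 and 1.91, each with an interval above 0. The ATP6V0E1 anchor among these then had only 4 and 18 read pairs (1.71; 0.11 to 3.73). The PKP1 bin had 4 and 11 read pairs, and the KLK3 promoter had no such loop.

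The 10 lowest anchors were at -1.06 to -0.83. An intergenic anchor 369957 bp from MBL2 (chr10:54902001-54903000) went from 216 to 142 read pairs over 24 loops (-1.06; -1.38 to -0.75), and one 77311 bp from FOLH1, which encodes prostate-specific membrane antigen, from 214 to 161 (-0.87; -1.17 to -0.57). A bin 56877 bp from RARB, the retinoic acid receptor beta gene, held 161, 62, 117, 46 and 26 read pairs (-0.92; -1.28 to -0.57). The other anchors lay nearest to LUZP2 (141 to 97 read pairs), SLC38A11 (-0.89), CHD1 (-0.87) and ATP2B1 (-0.86) or in LTN1 (-0.93), CCDC93 (-0.86) and C5orf15 (-0.83). Of the 107 lower anchors 43.0% were intergenic, against 27.5% of tested and 28.5% of higher anchors. Their mean GC content was 37.8%, against 47.8% in tested and 47.8% in higher anchors. Coding promoters made up 8.41% of the lower and 16.9% of the higher anchors, against 33.6% of those tested.

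**Figure D3:**
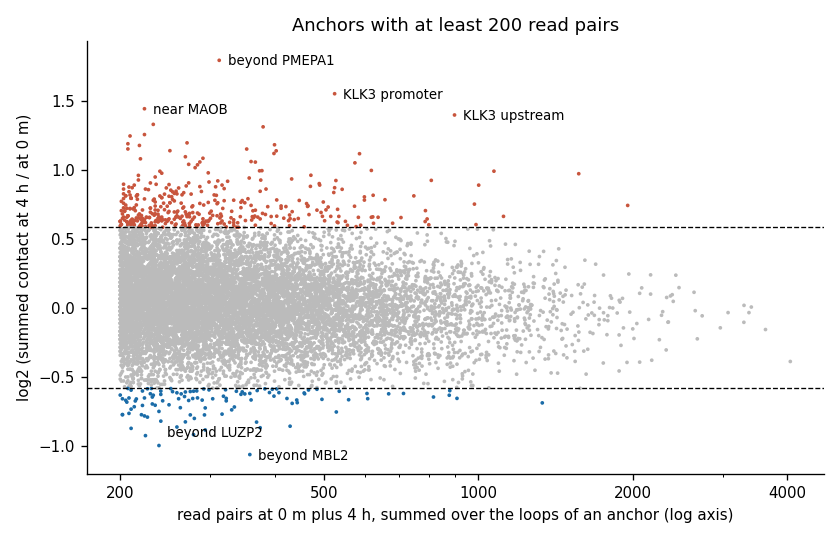
Log2 change of summed contact from 0 m to 4 h against the read pairs of each of 11222 anchors (log axis); dashed lines mark 1.5-fold. On this scale 390 anchors are higher (red) and 107 lower (blue), against 62 and 147 in loops of at least 20 kb, and the highest lie beyond PMEPA1 and at the KLK3 promoter and its upstream bin.

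For 4 transcription factor motifs, searched on both strands of the 1 kb anchors, shares were compared as a description. The forkhead motif, TGTTTAC, was in 56 of 390 higher (14.4%), 24 of 107 lower (22.4%) and 1468 of 10725 other anchors (13.7%). The AP-1 motif, TGANTCA, was in 23.1%, 37.4% and 25.2% of these. The GATA motif, AGATAA, was in 39.2%, 55.1% and 41.0%, and a CTCF core motif in 3.59%, 1.87% and 4.14%. In the 28 anchors that were at least 2-fold higher, the AP-1 motif was in 12 (42.9%; exact interval 24.5 to 62.8) and the GATA motif in 16 (57.1%; 37.2 to 75.5), while the forkhead motif was in 4 (14.3%) and the CTCF motif in 0 (interval up to 12.3%). The lower anchors, where AT-rich motifs were more frequent, are AT-rich, as given above.

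At promoters, 4673 of 14084 with loops had at least 200 read pairs, and of these 64 (1.37%) were at least 1.5-fold higher and 9 (0.193%) lower, with a median change of 0.03. The excess of rises did not hold with equal library totals (33 higher and 41 lower), in loops of at least 20 kb (8 and 28) or after adjustment for length (22 and 22). Neighbouring genes can share all their loops, and the 64 hold 55 different sets of loops. After KLK3 (1.55) came PKP1 (100 to 299 read pairs; 1.12, 0.79 to 1.46), CD2BP2, which encodes a splicing-related protein (64 to 170; 0.95, 0.53 to 1.39), MCCC2 (153 to 384; 0.87, 0.59 to 1.15), ZNF419 (0.86), AMIGO3 (89 to 216; 0.82, 0.46 to 1.19), AK4, a mitochondrial adenylate kinase (0.81), and ZNF526 and DEDD2, which share their loops (0.80). CD2BP2 was at -0.04 in loops of 20 kb or more.

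The lowest promoters were those of SLC10A7, a transporter-like gene (151 to 117 read pairs; -0.83, -1.19 to -0.47), PGRMC2, a haem-binding membrane protein (-0.77; -1.18 to -0.36), KDM5A and CCDC77, which share their loops (-0.68), MANBA, a lysosomal mannosidase (-0.68), RNF19A (-0.66), ATP2B1, a calcium pump (485 to 423; -0.66, -0.85 to -0.47), and KDM3A, a histone demethylase (127 to 113; -0.63, -1.01 to -0.25). NIPSNAP3B (-0.62) and ZNF608 (823 to 755; -0.58, -0.73 to -0.44) followed.

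Androgen-induced genes were read from 3 lists. Of 9 genes for secreted proteases and luminal secretion, 3 had at least 200 read pairs, KLK3, KLK15 (139 to 323; 0.76, 0.47 to 1.05) and KLK4 (195 to 423; 0.66, 0.41 to 0.91), and 3 of 3 were past 1.5-fold. All lie in the kallikrein cluster, and with equal library totals KLK4 fell just below 1.5-fold. With fewer read pairs, AZGP1 was at 0.70 (0.01 to 1.42; 26 to 58). Its interval included 0 with any annotated start (0.63, -0.006 to 1.30; 31 to 66) and in loops of at least 20 kb (0.89, -0.16 to 2.04). Of 17 genes of metabolism, transport and membrane, 0 of 9 passed, with a median of 0.18. The highest was ABCC4, an efflux transporter (127 to 231; 0.40, 0.08 to 0.73), which was at 0.15 (-0.25 to 0.55) in loops of at least 20 kb. AMD1, of polyamine synthesis, was at 0.18 (0.02 to 0.34) and at 0.09 (-0.11 to 0.30) in those loops, UAP1 at 0.19, SLC45A3 at 0.23, ODC1 at 0.11 and SAT1 at -0.22.

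Of 21 androgen-induced genes of transcription and signalling 1 of 10 passed, FKBP5, which did not pass with equal library totals. The list median was 0.14. HOMER2, a scaffold protein, was at 0.50 (0.09 to 0.92) in 12 loops that it shares with RAMAC, but at 0.21 (-0.60 to 1.05) at its annotated coding starts. CAMKK2, a calcium-dependent kinase, was at 0.19 and CENPN at -0.13. Over the 3 lists, 4 of 22 tested promoters (18.2%) were higher, against 1.37% of all tested promoters, and 0 were lower. Of the 4, KLK3, KLK15 and KLK4 lie in 1 cluster and are not independent of each other. With equal library totals, which move every change by -0.07, KLK4 and FKBP5 fell below 1.5-fold and KLK3 and KLK15 stayed above. On that scale 33 of all 4673 tested promoters were higher. Above 0 were 17 of the 22, as were 55.5% of all tested promoters. In loops of at least 20 kb 1 of the 4 stayed past 1.5-fold, KLK15 (0.66), while KLK4 was at 0.56 and FKBP5 at 0.47, and KLK3 had no such loop. Over loops of any length the median of the 3 lists was 0.19, against 0.03 over all promoters tested. At 20 kb or more it was 0.09 against -0.05. Of androgen-induced genes that glucocorticoids induce too, 2 of 7 were higher, FKBP5 and ZBTB16 (320 to 669; 0.60, 0.41 to 0.80). With equal library totals both fell below 1.5-fold. The circadian gene PER1 was at 0.43 (0.19 to 0.66), or 0.31 (-0.02 to 0.65) in loops of at least 20 kb. NFKBIA was at 0.15, KLF9 at -0.11 and MT2A at -0.16.

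Of 11 genes that androgen represses, 3 were tested and 0 passed 1.5-fold. BCHE, which encodes butyrylcholinesterase, was at -0.34 (357 to 387 read pairs; -0.55 to -0.13), CAMK2N1, a kinase inhibitor, at -0.31 (-0.55 to -0.07; -0.16, -0.45 to 0.13 at 20 kb or more) and UGT2B15, which inactivates androgens, at -0.09 (-0.34 to 0.16). Over the 10 with loops the summed change was -0.24 (-0.35 to -0.12), with most read pairs in these 3 genes. CCN3 was at -0.23 and UGT2B11 at 0.31, each with an interval that held 0. UGT2B7 had 2 and 5 read pairs at its outermost start, and with any annotated start 222 and 245 over 28 loops (-0.32; -0.59 to -0.05).

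The other lists held no promoter past 1.5-fold. The median was 0.01 over 8 immediate early genes, -0.09 over 9 luminal epithelial transcription factors, -0.02 over 10 nuclear receptor coregulators, 0.01 over 13 genes of sterol and fatty acid synthesis and 0.07 over 48 cytosolic ribosomal protein genes. By the number of read pairs, the leading members of these lists were near 0 in most cases, with JUN at 0.03, IER2 at -0.16, JUND at 0.22, GRHL2 at -0.14, XBP1 at -0.09, ARID1A at -0.10, SMARCA4 at -0.13 and EP300 at -0.03. SREBF1 and SREBF2, regulators of sterol synthesis, were at -0.03 and -0.12, FASN at 0.13, and the ribosomal genes RPS2, RPL13A and RPS15 at 0.09, 0.22 and 0.08. Some members had intervals that excluded 0, as did 10.9% of all tested promoters upward and 7.45% downward. MYC, the growth-driving transcription factor, was at -0.40 (858 to 894 read pairs over 91 loops; -0.54 to -0.26), FOXA1 at -0.32 (776 to 853; -0.46 to -0.18), MED1, a Mediator subunit, at -0.28 (-0.55 to -0.01), and the luminal gene FOLH1 at -0.34 (703 to 763; -0.49 to -0.19), while KRT8 was at 0.18 (-0.03 to 0.39). ZFP36, an RNA-binding repressor of the immediate early list, was at 0.33 (0.09 to 0.58) and SPDEF, a luminal factor, at 0.23 (0.03 to 0.44). In loops of at least 20 kb ZFP36 was still at 0.33 but with 26 and 45 read pairs (-0.40 to 1.09), and SPDEF was at 0.15 (-0.14 to 0.43). HOXB13 (0.26; 0.08 to 0.45) and GATA2 (0.28; 0.07 to 0.50), transcription factors of luminal prostate cells, were higher with 2 loops each, and at 20 kb or more they had 3 and 2 read pairs at each time, too few to compare. With any annotated start GATA2 had 40 loops and was at 0.09 (-0.03 to 0.20).

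**Figure D4:**
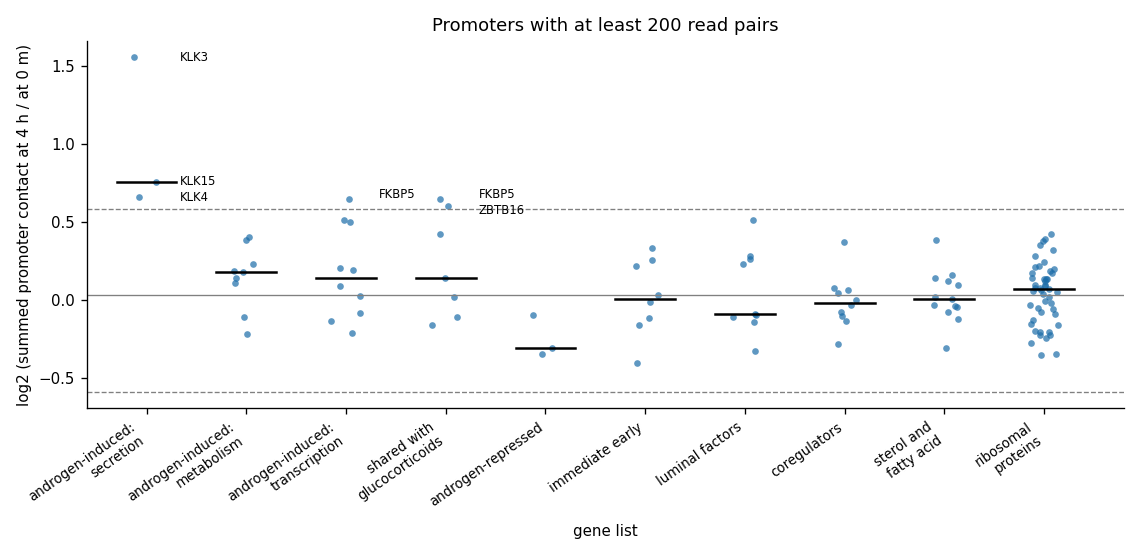
Log2 change of summed promoter contact from 0 m to 4 h for each promoter with at least 200 read pairs in 10 gene lists (points), with the list median (black bar), the median over all tested promoters of 0.03 (grey line) and 1.5-fold (dashed lines). On the deposited scale KLK3, KLK15, KLK4, FKBP5 and ZBTB16 lie above the upper dashed line, and 0 promoters of these lists lie below the lower one. With equal library totals KLK4, FKBP5 and ZBTB16 fall short of 1.5-fold.

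Genes were also read in the classes that the study had formed from genes raised by DHT, by the time point of their highest nascent transcription. Of the promoters with at least 200 read pairs, 0 of 15 in the 30 m class, 2 of 25 in the 4 h class (KLK3 and AMIGO3), 1 of 45 in the 16 h class (TMEM151A, 0.64) and 1 of 34 in the 72 h class (TRPT1, 0.65) were past 1.5-fold higher, against 1.37% of all tested promoters, and 0 of these were lower. With equal library totals TMEM151A and TRPT1 fell below 1.5-fold. In loops of at least 20 kb TMEM151A was at 0.27 (-0.17 to 0.73) and TRPT1 at 0.52 (0.10 to 0.95), while KLK3 and AMIGO3 had no such loop. TMEM151A shares its loops with YIF1A, and TRPT1 with NUDT22. Over loops of any length the class medians were 0.10, 0.00, 0.11 and 0.06, against 0.03 for all tested promoters. The study chose these classes on the same cells and treatment, so they are not independent of it.

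H3K4me3, a mark of active promoters, was measured in separate libraries and was not used to choose these loops. At all loops its mean contact was 1.52 at 0 m and 1.80 at 4 h (0.24; 0.24 to 0.25), from 1595399 and 6726710 read pairs, so that the 4 h library was by far the deeper. At the 589 loops higher in H3K27ac it went from 4.74 to 4.95 (0.06; 0.03 to 0.10), and at the 63 lower loops from 3.13 to 3.92 (0.32; 0.21 to 0.44). With both H3K4me3 libraries set to equal totals these were -0.18 and 0.08. Of the higher loops, 195 had at least 50 H3K4me3 read pairs, and 17 of these were 2-fold higher and 11 lower, against 7.28% and 1.7% of the 9301 tested H3K27ac loops with that many. The median H3K4me3 change of these 195 was -0.03, against 0.25 for the 9301. At 20 kb or more this gap was absent. There, 21 higher loops had that many read pairs, with a median of 0.26, against 0.26 for the tested loops of that length. Of the 21, 4 were 2-fold higher in H3K4me3 and 0 lower.

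At the KLK3 promoter loop H3K4me3 contact was 10.2 at 0 m and 11.3 at 4 h (36 and 142 read pairs; 0.15, -0.39 to 0.72), and with equal H3K4me3 totals the change was -0.10. At the ZBTB16 intron loop it was 2.26 and 2.69 (8 and 34 read pairs; 0.26, -0.88 to 1.58).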

How the data were processed

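H3K27ac and H3K4me3 HiChIP was made from LNCaP cells, with 15 labelled samples and 10 deposited tables, 1 per mark and time point. Per the labels and the study's methods, the authors trimmed reads with Trim Galore 0.5.0, mapped them to hg19 with HiC-Pro 3.1.0 and Bowtie2, called loops in 5 kb bins with FitHiChIP on merged time points and scaled contacts by TMM among the time points of a mark. The deposited contact signal of each loop is that scaled value. Whether both H3K27ac replicates entered it is not given in the sources used here.

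Each deposited value divided by the smallest non-zero value of its table was whole within 0.001 in 100% of loops, and was taken as read pairs. The H3K27ac tables held 1989545 (0 m) to 3426705 (30 m) read pairs in the loop set. Changes are log2 ratios of deposited contact, 4 h over 0 m, with exact conditional (Clopper-Pearson) 95% intervals of the read pairs. Reads carry no molecular identifiers, so intervals cover counting error only. Loops needed 50 read pairs at 0 m plus 4 h, anchors and promoters 200. Sums over an anchor count each loop at both its ends. Promoters were anchors within 2500 bp of the outermost start of a coding gene (Gencode 44 lifted to GRCh37, chromosome Y left out), and KLK2 and TMPRSS2 have other starts. The KLK3 promoter sequence is from hg19. Nascent transcription classes are the study's lists. Some genes and a set of regulatory elements are not reported here.

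Python 3.11.15, numpy 2.4.6, pandas 2.3.3, scipy 1.17.1 and pysam 0.24.0 were used, and the counting of changes was tested on simulated data. The rule for naming took the 10 loops (at least 100 read pairs), anchors and promoters with the largest and the smallest changes, list members past 1.5-fold, up to 4 members of a list with the most read pairs (of marker lists, those tested), and the 3 strongest loops of 8 androgen-regulated genes. Other genes and loops, the ZBTB16 and PMEPA1 regions and further list members, SPDEF, ZFP36 and GATA2 among them, were chosen after their values were seen. Members and lists were chosen with earlier results of these data known. Alternatives were equal library totals, other minima, folds and promoter windows, loops of at least 20 kb and loops outside the H3K4me3 set. Adjustment for loop length, any annotated start and the whole 5 kb bin were chosen after seeing the data.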

Additional observations from a re-analysis of the deposited data

How the results depend on the processing

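No paired analysis was possible because 1 value per loop and time point was deposited, so replicate error is unknown and no value here was tested. Depth was a median of 4 to 5 read pairs per loop. Values below are log2 changes unless they are counts, those of gene lists and classes are changes of summed contact and not the medians given above, and the cause of a change with the setting was not tested.

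With equal H3K27ac totals every change moves by -0.07. All loops came to 0, the length classes from the shortest to 0.15, -0.087, -0.17, -0.28 and -0.32, the classes of contact from the lowest to -0.14, -0.026, 0.065 and 0.094, and loops with both, 1 or no anchor at promoters to -0.018, -0.043 and 0.024. There were 429 higher and 103 lower loops, 238 higher and 224 lower anchors, and 33 higher and 41 lower promoters. Luminal transcription factors came from -0.0081 to -0.082, sterol synthesis from -0.0098 to -0.084, ribosomal genes from 0.036 to -0.038, the 3 androgen lists from 0.31 to 0.24, and the nascent classes from 0.063, 0.093, 0.082 and 0.044 to -0.011, 0.019, 0.0080 and -0.030. With equal H3K4me3 totals, H3K4me3 at all, higher and lower loops came to 0, -0.18 and 0.080.

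In loops of at least 20 kb all loops were at -0.061, the contact classes at -0.072, -0.054, -0.057 and -0.018, and the promoter classes at -0.051, -0.071 and -0.056. There were 42 higher and 35 lower loops, 62 higher and 147 lower anchors, and 8 higher and 28 lower promoters. The secretion list was at 0.69 (0.96 in all loops), metabolism at 0.039 (0.18 in all loops), immediate early genes at -0.13 (-0.054 in all loops), luminal transcription factors at -0.13, sterol synthesis at -0.079, ribosomal genes at -0.058, the 3 androgen lists at 0.19, and the nascent classes at -0.063, -0.12, -0.017 and -0.074. H3K4me3 at all and at higher loops was at 0.22 and 0.10.

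Adjusted for length, there were 238 higher and 126 lower loops, 215 higher and 148 lower anchors, and 22 higher and 22 lower promoters. Luminal transcription factors were at -0.10 and ribosomal genes at -0.042. A minimum of 20 read pairs gave 4133 higher and 1766 lower loops. A minimum of 100 gave 77 and 1 loops, 1672 and 405 anchors, and 215 and 53 promoters. At 1.5-fold there were 2881 higher and 634 lower loops. At 2-fold there were 28 higher and 1 lower anchors, and 2 higher and 0 lower promoters. In whole 5 kb bins the forkhead motif was in 54.6% of higher, 72.0% of lower and 49.1% of other anchors. A promoter window of 1000 bp gave 34 higher promoters, 0.011 for loops with both anchors at promoters, 0.090 for those with none, 1.40 for the secretion list, 0.056 for luminal transcription factors and 0.070 for sterol synthesis. With any annotated start, 15 promoters were lower, metabolism was at 0.066 and the 3 androgen lists at 0.25. All loops outside the H3K4me3 set were at 0.091.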

Other observations

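The H3K27ac set held 1 loop on the mitochondrial genome, with 1193 read pairs at 0 m and 986 at 4 h. Its contact was 351 and 211, a log2 change of -0.73 (-0.86 to -0.61). Contact there was also lower at 4 h in the H3K4me3 libraries, 145 and 47.9, so the fall was not particular to H3K27ac. Its cause was not tested. INSIG1, which encodes a brake on sterol synthesis, had too few read pairs for the promoter comparison (103 at 0 m and 92 at 4 h), and its promoter contact changed by -0.62 (-1.04 to -0.20). With any annotated start it had 112 and 112 read pairs and changed by -0.46 (-0.85 to -0.07). By chromosome the change of all loops ran from 0.02 on chromosome 4 to 0.17 on chromosome 19.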
